A study of Homo sapiens with 63 samples.

Results

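The G2/M cyclins and anaphase-promoting complex genes were examined in small-cell lung cancer (SCLC) cell lines. The members were every probe whose platform annotation carries the symbol CCNA2, CCNB1, CCNB2, CDK1, CDC20, CDC25B, CDC25C, UBE2C, UBE2S or PTTG1. This gave 14 of the 47217 probes on the array and 10 of the 15460 genes with a usable probe, and no member was lost to the detection filter. Total RNA of 9 human SCLC lines was hybridised to 63 Illumina HT-12 v4 arrays, 1 for each line under each condition. SCLC is a neuroendocrine lung tumor, and the lines were DMS53, DMS114 and DMS153 and the H lines H69, H128, H146, H187, H209 and H526. All lines were cultured in RPMI medium with serum and none carried an engineered allele. Con cells received vehicle. A5 and A50 stand for veliparib alone, given at 5 and 50 µmol/L. C+0 was cisplatin alone, dosed at each line's own IC50, and C+5 and C+50 combined it with the lower and the higher veliparib dose. Rad cells received 2 Gy of ionizing radiation. Veliparib (ABT-888) inhibits PARP enzymes, which act in DNA single-strand break repair, and cisplatin forms DNA crosslinks. The cisplatin dose ran from 0.4 µM in H526 to 14.5 µM in H128. The study's methods give 24 h of exposure, while the sample labels carry a longer time in the words of the cytotoxicity assay. The short tandem repeat profile of H128 did not match its published reference.

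Cyclins A2, B1 and B2 activate the kinase CDK1, which drives cells from G2 into mitosis, and the CDC25 phosphatases remove the inhibitory phosphates from CDK1. The anaphase-promoting complex (APC/C) is a ubiquitin ligase that ends mitosis: with its coactivator CDC20 and the ubiquitin-conjugating enzymes UBE2C and UBE2S it marks the B-type cyclins and securin (PTTG1) for destruction. Transcripts of these genes accumulate in G2 and mitosis in cycling cells, so in RNA of a whole culture fewer cells in these phases and less transcript per cell cannot be told apart.

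The arrays detected between 19124 and 22330 probes each. Arrays of the same line resembled each other after the mean of each condition was removed (r from 0.9285 to 0.9821 across probes, which are not independent), so each treatment was compared with Con within lines. The neuroendocrine markers INSM1, CHGA, SYP, NCAM1 and UCHL1 were detected on the Con arrays of all 9 lines, DDC was detected in 6, and NEUROD1 had no probe used here. DMS114 carried fibroblast transcripts on its Con array, with log2 signals of 11.30 for COL3A1 and 11.24 for DCN against medians over the lines of 6.59 and 6.46, and COL1A2 reached 9.29 in H128. Of the leucocyte markers, PTPRC and CD3D had no probe above the detection filter, and CD14 was detected in all lines. Of the 15 measured marker genes 0 passed limma's test with any treatment, and at an unadjusted p under 0.05 there were 2 with A50, 1 with C+50 and 0 with the others, while the median change of the 6 measured neuroendocrine markers with C+50 was 0.03. The BeadChip of each array is not given in the sources used here, so a batch by BeadChip was not tested.

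RefSeq promoter windows (GRCh38.p14, 250 bases before to 50 bases after each annotated start) were searched for the CHR element (TTTGAA or TTCGAA) and for the CCAAT box that NF-Y binds, on both strands. In G2/M genes a CHR near the start is the known docking site of the DREAM and MuvB complexes. Windows were found for 9 of the 10 members, while UBE2C had none. At the most upstream annotated start, 7 of these 9 held CCAAT, compared with 34.6% of all 35116 windows, and 3 of the 9 held a CHR (CCNB2, CDK1 and CDC20), compared with 16.4% of all windows. At other annotated starts CDC25B and CDC25C, with 4 windows each, also held both, and CDK1 held further matches of both. A gene with several windows has more chances of a match, so these are not set against the shares. The 200 bases before the most upstream start are shown for the 4 members with more than 1 CCAAT in that start's window. This was a feature of 10.8% of all windows, and of 7.87% when only those 200 bases were searched. The bases shown run from 5′ to 3′ on the strand of the gene. Capitals mark CCAAT or its complement ATTGG and the CHR, read on either strand.
CCNB1, chr5:69166950-69167149, plus strand: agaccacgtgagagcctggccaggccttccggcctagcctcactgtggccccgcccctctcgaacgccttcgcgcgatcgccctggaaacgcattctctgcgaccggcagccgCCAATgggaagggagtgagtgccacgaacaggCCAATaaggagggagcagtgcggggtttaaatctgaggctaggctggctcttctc
CCNB2, chr15:59104946-59105145, plus strand: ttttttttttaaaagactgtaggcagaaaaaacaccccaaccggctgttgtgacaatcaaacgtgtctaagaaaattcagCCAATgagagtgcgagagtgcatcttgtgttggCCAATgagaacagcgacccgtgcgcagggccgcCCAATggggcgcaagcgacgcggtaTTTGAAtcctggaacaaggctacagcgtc
CDC20, chr1:43358781-43358980, plus strand: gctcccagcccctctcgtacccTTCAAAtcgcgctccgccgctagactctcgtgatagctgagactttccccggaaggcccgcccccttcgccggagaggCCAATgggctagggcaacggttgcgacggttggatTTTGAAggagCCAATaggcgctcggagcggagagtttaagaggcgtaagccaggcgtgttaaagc
PTTG1, chr5:160421655-160421854, plus strand: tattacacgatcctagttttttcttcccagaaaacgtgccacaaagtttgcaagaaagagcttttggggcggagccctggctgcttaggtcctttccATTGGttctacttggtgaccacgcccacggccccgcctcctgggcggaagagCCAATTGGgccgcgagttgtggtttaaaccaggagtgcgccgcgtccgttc
CCNB2 had CCAAT at -120, -87 and -54 and a CHR at -29, counting the first base of each match back from the start, and the neighbouring CCAAT of these were 33 bases apart. CCNB1 had CCAAT at -87 and -55, which are 32 bases apart, and no CHR of these letters. CDC20 had CCAAT at -100 and -55 with CHR matches at -178, on the other strand, and at -65. In PTTG1 the capitals CCAATTGG hold a CCAAT and an overlapping ATTGG, counted separately. These are matches of letters and were not shown to be sites in use.

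Each member except UBE2S was detected on all 63 arrays. Between 50.6% (CDK1) and 94.9% (CDC25B) of a member's variance over the arrays lay between lines. PTTG1 had its lowest Con signal in DMS114 (11.18 on the log2 scale), a median of 12.19 and its highest in H187 (13.09). CCNB1 ran from 8.24 in H209 through a median of 9.15 to 10.33 in H187. UBE2C lay between 11.53 and 12.16 in 8 lines and at 10.44 in DMS114. H187 had the highest level of 4 members (CCNB1, CDC25C, UBE2C and PTTG1), while DMS114 had the lowest level of 3. CDC20 was lowest in H146 (10.44) and between 11.27 and 12.04 in the other lines. UBE2S was dim: its probe was detected on 33 of the 63 arrays and its Con signal ran only from 6.59 to 6.91, so its changes were measured near background. Signals of different probes are not comparable, and no order between genes is drawn from them.

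**Figure D1:**
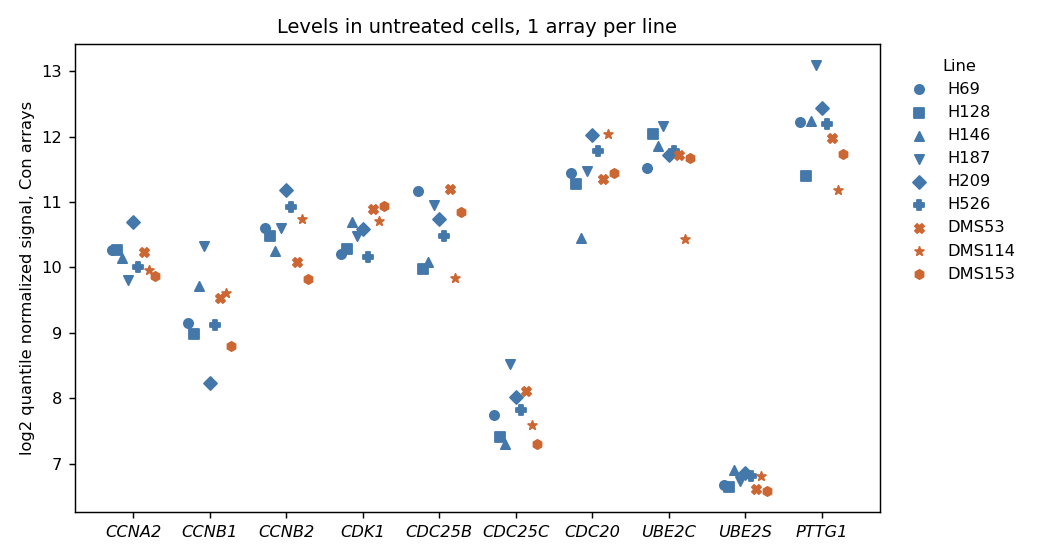
Log2 quantile normalized signal (vertical axis) of the 10 members on the Con array of each of the 9 lines, with H lines in blue and DMS lines in orange. DMS114 lies apart for UBE2C at 10.44, H146 lies apart for CDC20 at 10.44, and UBE2S stays between 6.59 and 6.91.

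Most members fell with veliparib at the higher dose and with each cisplatin treatment. With A50, 9 of the 10 members fell at an adjusted p under 0.05, compared with 8.32% of all 15460 genes in that direction. With C+50, 9 of 10 fell, compared with 12.1% of all genes. Cisplatin alone lowered 6 of 10 (1.36% of all genes) and C+5 lowered 7 of 10 (1.61%). With arrays scaled to 1 median in place of quantile normalization these last counts were 3 and 1. No member rose with any of these. The median change over the 10 members was -0.24 with C+0, -0.28 with C+5, -0.35 with A50 and -0.43 with C+50 on the log2 scale. The median over all genes lay between -0.002 and 0.0025 in each, but quantile normalization itself holds that median near 0. These treatments share the same Con arrays. UBE2S was the member that passed with none of them. With A5 the median was -0.08 and 0 of 10 members passed limma's test (0% of all genes), with 4 of 10 at an unadjusted p under 0.05 (4.43% of all genes). The rule in the study's methods asks for a fold of 1.5 or more and an unadjusted p under 0.01. On the probe used for each gene, by that rule 0 of 10 members fell with A5 (0% of all genes), A50 (0.0259%), C+0 (0%), C+5 (0.00647%), C+50 (0.0712%) or Rad (0%), while the dimmer UBE2C probe met it with C+50 at -0.60.

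**Figure D2:**
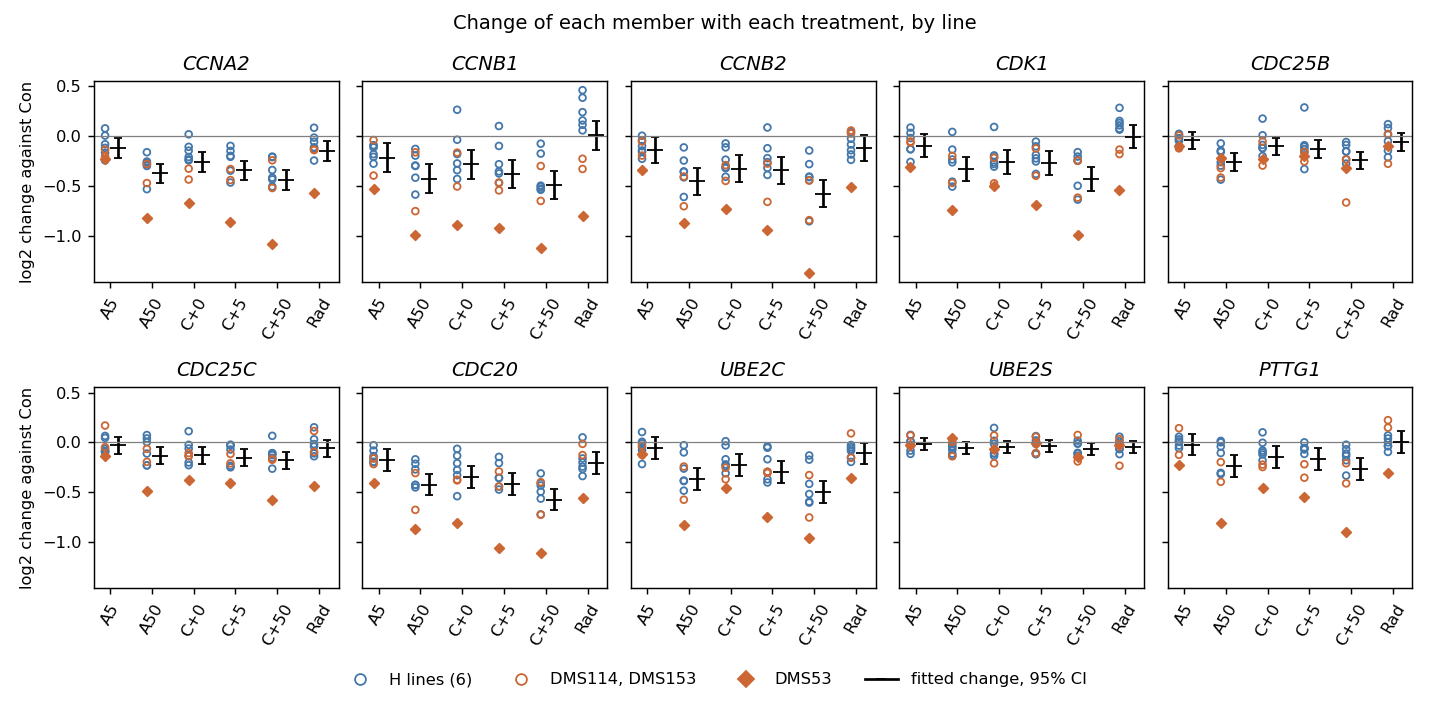
Log2 change against Con (vertical axis) of each member with each treatment (horizontal axis). Points are the 9 lines (blue circles H lines, orange circles DMS114 and DMS153, filled diamonds DMS53) and black bars are the change fitted by limma with its 95% confidence interval. DMS53 lies lowest for 8 of 10 members with C+50, and UBE2S stays near 0.

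Among the cyclins, CCNB2 showed the largest mean fall with C+50. Its log2 signal ran from 9.82 (DMS153) through a median of 10.60 to 11.18 (H209) with Con, and from 8.71 (DMS53) through 10.29 to 10.77 (H209) with C+50. The ranges overlapped, since lines differ in level, but the signal was lower in 9 of 9 lines, from -0.14 in H128 to -1.37 in DMS53. The fitted change was -0.58 ± 0.07 (SE; adjusted p = 1.21e-09, limma), a fall by 33%. CCNB1, the main partner of CDK1 at mitotic entry, ran from 8.24 (H209) through 9.15 to 10.33 (H187) with Con and from 7.73 (H209) through 8.58 to 10.26 (H187) with C+50. The lines kept this wide spread, and the change was -0.49 ± 0.07 (adjusted p = 3.63e-07). H187, with the highest CCNB1 level, hardly moved (-0.07), while DMS53 fell by 1.12. With cisplatin alone CCNB1 was 0.27 higher in H187 and lower in the other 8 lines, and its fitted change of -0.28 (adjusted p = 0.0248) no longer passed without H128, H209, H526, DMS53 or DMS153. CCNA2, which also acts in S phase, ran from 9.81 (H187) through 10.15 to 10.70 (H209) with Con and from 9.16 (DMS53) through 9.80 to 10.19 (H209) with C+50. Its change was -0.44 ± 0.05 (adjusted p = 4.91e-10), and the 8 lines other than DMS53 lay between -0.52 and -0.20. With A50 the falls were -0.45 ± 0.07 for CCNB2 (adjusted p = 1.07e-06), -0.42 ± 0.07 for CCNB1 (1.26e-05) and -0.37 ± 0.05 for CCNA2 (8.36e-08), each lower in 9 of 9 lines.

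CDK1 fell on both of its probes. The brighter probe had Con values from 10.16 (H526) through a median of 10.58 to 10.95 (DMS153), and C+50 values from 9.90 (DMS53) through 10.08 to 10.47 (DMS114). Its change was -0.43 ± 0.06 (adjusted p = 1e-07), with 9 of 9 lines lower, and the dimmer probe changed by -0.32 ± 0.08 (adjusted p = 0.00118), with 8 of 9 lines lower. The change with cisplatin alone passed on the brighter probe (-0.26, adjusted p = 0.0106) and not on the dimmer (-0.24, adjusted p = 0.109), and that of the brighter probe was lost without DMS153. In CDK1, 31.4% of the variance over the 63 arrays lay between conditions, and 99.9% of genes had a smaller share. For the median gene that share was 1.7%, with 92% between lines.

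The CDC25 phosphatases moved less. CDC25B, which acts at mitotic entry, had Con values from 9.83 (DMS114) through 10.74 to 11.19 (DMS53), and C+50 values from 9.17 (DMS114) through 10.59 to 10.94 (H69). It changed by -0.24 ± 0.04 (adjusted p = 2.58e-05), with 9 of 9 lines lower. Unlike the cyclins, its largest fall was in DMS114 (-0.66) and not in DMS53 (-0.32). With C+5 it was 0.29 higher in H187 and lower in the other 8 lines, and it did not pass with C+0 or C+5 (adjusted p = 0.335 and 0.151). CDC25C ran from 7.29 (H146) through 7.75 to 8.52 (H187) with Con and from 7.13 (DMS153) through 7.53 to 8.41 (H187) with C+50 on its brighter probe. It changed by -0.18 ± 0.04 (adjusted p = 0.0012), with the other probe at -0.18 ± 0.04. DMS53 fell by 0.58, no other line fell by more than 0.26, and H69 was 0.07 higher. Without DMS53 the change was -0.13 and still passed. With A50 it changed by -0.13 ± 0.04 (adjusted p = 0.0268) and with C+5 by -0.15 ± 0.04 (0.0428). Without DMS53 these were -0.09 and -0.12 and no longer passed. The first was also lost without H128, H209 or DMS153, and the second without H128, H146, H209, DMS114 or DMS153. These values are of the brighter probe. The other probe passed with A50 (-0.13 ± 0.04, adjusted p = 0.0195) and with C+5 (-0.20 ± 0.04, 0.00278). With C+0 the other probe passed (-0.18 ± 0.04, adjusted p = 0.0126) and the brighter did not (-0.13 ± 0.04, 0.129).

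Of the APC/C genes, CDC20 is the coactivator that starts anaphase. Its signal ran from 10.44 (H146) through 11.45 to 12.04 (DMS114) with Con, and from 10.03 (H146) through 10.98 to 11.64 (DMS114) with C+50. It was lower in 9 of 9 lines, from -0.31 in H69 to -1.11 in DMS53, and the change of -0.57 ± 0.05 (adjusted p = 2.11e-12) had the lowest p of the members. CDC20 was also lower in 9 of 9 lines with A50 (-0.42 ± 0.05, adjusted p = 3.52e-08), C+0 (-0.35 ± 0.05, 8.72e-05), C+5 (-0.42 ± 0.05, 9.86e-07) and A5 (-0.18 ± 0.05, adjusted p = 1).

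UBE2C, the E2 that primes APC/C substrates with ubiquitin, ran from 10.44 (DMS114) through 11.72 to 12.16 (H187) with Con and from 10.11 (DMS114) through 11.27 to 11.99 (H187) with C+50 on its brighter probe. The signal was lower in 9 of 9 lines on both probes. It changed by -0.50 ± 0.05 on the brighter probe (adjusted p = 2.08e-10) and by -0.60 ± 0.06 on its dimmer one (9.97e-12). With cisplatin alone the brighter probe changed by -0.23 (adjusted p = 0.0168), which was lost without H128 or DMS153 and with median scaling. The dimmer probe did not pass with cisplatin alone (-0.21 ± 0.06, adjusted p = 0.0519), with 9 of 9 lines lower. PTTG1, securin, which holds separase inactive until anaphase, ran from 11.18 (DMS114) through 12.19 to 13.09 (H187) with Con and from 10.97 (DMS114) through 12.10 to 12.91 (H187) with C+50 on its brighter probe. Its change was -0.26 ± 0.05 (adjusted p = 0.000201) and was uneven: DMS53 fell by 0.90, DMS153 by 0.41, and H526 by 0.02. With A50 it passed on the brighter probe (-0.24 ± 0.05, adjusted p = 0.00118) and not on the other (-0.16 ± 0.06, 0.0791). PTTG1 has near-identical copies. A probe annotated to PTTG3P followed that of PTTG1 (r = 0.80 over 63 arrays after line means were removed) and changed by -0.31, so signal from the copies cannot be told apart here. PTTG2 was detected on 2 arrays. UBE2S, the E2 that extends the ubiquitin chains, changed by -0.07 ± 0.03 with C+50 (adjusted p = 0.109, 95% interval from -0.13 to -0.01), measured near background.

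The lines differed in how far the members fell. In DMS53 the median change over the 10 members was -0.98 with C+50, -0.72 with C+5, -0.48 with C+0 and -0.81 with A50. DMS153 came next with -0.57 with C+50, then H209 with -0.45 and H146 with -0.37, and the smallest medians were those of H187 (-0.18) and H526 (-0.18). DMS53 received 12.5 µM cisplatin, and H128, with a median of -0.24, received 14.5 µM. DMS53 had the lowest change of 8 of 10 members with C+50, whereas it had the lowest change of 16.4% of all genes. Its median absolute change over all genes with C+50 was 0.11, the highest of the lines, which ran from 0.07. Each line's change is the difference of 2 arrays and has no replicate. Without DMS53, 9 of 10 members still fell with C+50, 8 with A50, 5 with C+0 and 6 with C+5, and over these changes no direction turned.

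**Figure D3:**
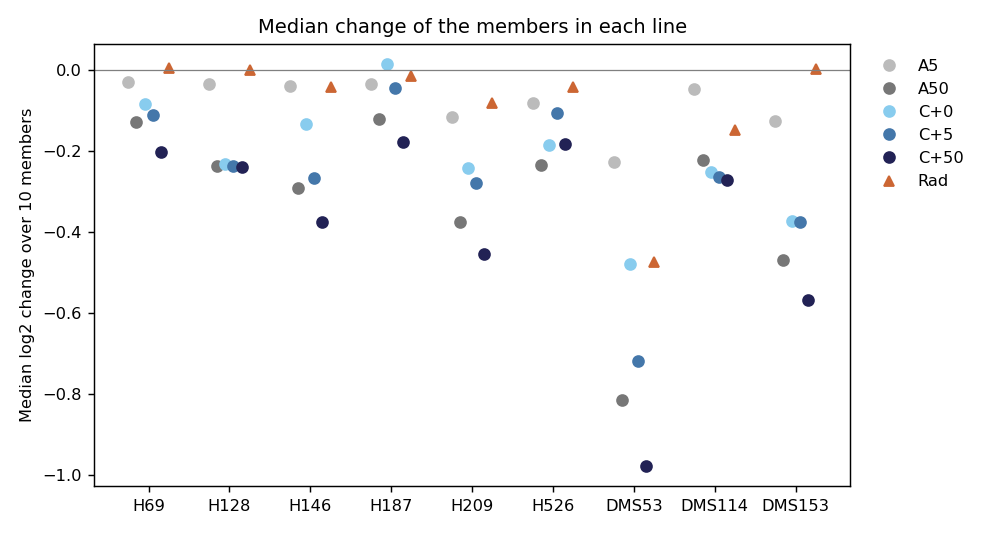
Median log2 change over the 10 members (vertical axis) in each of the 9 lines (horizontal axis), with 1 point per treatment against Con. DMS53 is lowest with each treatment, at -0.98 with C+50 and -0.47 with Rad, and H187 stays between -0.18 and 0.02.

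The higher dose of veliparib lowered the members further. Between A50 and A5, 7 of 10 fell (5.28% of all genes), led by CCNB2 (-0.31 ± 0.07, adjusted p = 0.000986, 9 of 9 lines lower) and UBE2C (-0.31 ± 0.05, 6.13e-05, 9 of 9). Adding 50 µmol/L veliparib to cisplatin lowered 5 of 10 (8.3% of all genes), which were CCNA2, CCNB2, CDC25B, CDC20 and UBE2C. UBE2C changed most in that comparison, by -0.27 ± 0.05 (adjusted p = 0.00023, 9 of 9 lines lower). CCNB1 at -0.20 (adjusted p = 0.0505) and the brighter CDK1 probe at -0.17 (0.0544) lay just outside the threshold. The dimmer CDK1 probe changed by only -0.08 ± 0.08 (adjusted p = 0.587), with 6 of 9 lines lower. CDC25B (-0.14, 0.0251) was lost without H69, DMS114 or DMS153. With median scaling 0 of 10 passed. Adding 5 µmol/L to cisplatin gave 0 of 10 by limma (0% of all genes), with 0 of 10 at an unadjusted p under 0.05 (3.31%), and changes between -0.09 (CCNB1) and 0.01 (UBE2S).

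Adding cisplatin to 50 µmol/L veliparib gave 0 of 10 lower by limma (0.356% of all genes), with 2 of 10 at an unadjusted p under 0.05 (13.3%). The largest of these differences was that of CDC20, -0.15 with a 95% interval from -0.26 to -0.04 (adjusted p = 0.209). The combination was also set against the sum of the changes with C+0 and A50. Its departure was above 0 for all 10 members, which means smaller falls than the sum, with a median of 0.14, the largest for CCNB1 (0.22 ± 0.10, adjusted p = 0.701). All of these departures use the same arrays, Con among them, and the members track each other, so the 10 signs are not independent. None of the 10 passed limma's test (0.00647% of all genes), and 4 of 10 had an unadjusted p under 0.05 (6.65%).

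Radiation at 2 Gy did not lower the members together. Over the 9 lines 1 of 10, CDC20, fell (0.226% of all genes), by 0.21 ± 0.05 (adjusted p = 0.0439, 8 of 9 lines lower), and the median over the members was -0.06. That call was lost without each of 6 lines in turn (H69, H128, H146, H187, H209 or H526), at changes between -0.24 and -0.19. CCNB1 and CDK1 had changes of opposite sign in the H and the DMS lines. CCNB1 was higher with Rad in 6 of 6 H lines, by 0.06 in H526 to 0.46 in H187, and lower in 3 of 3 DMS lines, at -0.23 in DMS114, -0.33 in DMS153 and -0.80 in DMS53. CDK1 was higher in the same 6 H lines, by 0.07 in H146 to 0.28 in H526, and lower in DMS153 (-0.13), DMS114 (-0.18) and DMS53 (-0.54). For both genes the changes of the H and the DMS lines did not overlap.

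In the fit with a separate effect for each of these groups, the change of CCNB1 was 0.24 ± 0.07 in the H lines (adjusted p = 0.0317) and -0.45 ± 0.10 in the DMS lines (adjusted p = 0.0333). On the probe used for each gene it was the 1 member of 10 that rose in the H lines (3.05% of all genes) and the 1 that fell in the DMS lines (0.0712%), and CDC20 was the 1 that fell in the H lines (1.4%). The rise of CCNB1 was lost without H69, H128, H146 or H187, its fall without DMS53, and the fall of CDC20 without any H line but H69. The difference between the groups passed for 2 of 10 members (1.71% of all genes): CCNB1 at 0.69 ± 0.12 (adjusted p = 0.000123) and CDK1 at 0.42 ± 0.11 (adjusted p = 0.0207). Within the groups the brighter CDK1 probe did not pass, at 0.14 ± 0.07 in the H lines (adjusted p = 0.288) and -0.28 ± 0.09 in the DMS lines (0.196). The dimmer CDK1 probe rose in the H lines (0.34 ± 0.07, adjusted p = 0.00106, 6 of 6 lines higher), was at -0.42 ± 0.10 in the DMS lines (0.0593), and differed by 0.75 ± 0.12 (3.92e-05). For CCNB2, the other B-type cyclin, the difference was 0.04 with a 95% interval from -0.20 to 0.28, and for CDC20 it was 0.04 with an interval from -0.17 to 0.25. The split into H and DMS lines was made with earlier results of these data known, so the test is no independent evidence, and there were only 3 DMS lines. The BeadChip of each array is not given, so its part in this difference was not tested. Without DMS53 the difference was 0.51 for CCNB1, which still passed, and 0.29 for CDK1, which did not. With median scaling 7 of 10 members fell in the DMS lines and 7 differed between the groups, but so did much of the array: of 30716 probes, 2364 fell in the DMS lines, from 27, and 6217 were higher in the difference, from 835.

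**Figure D4:**
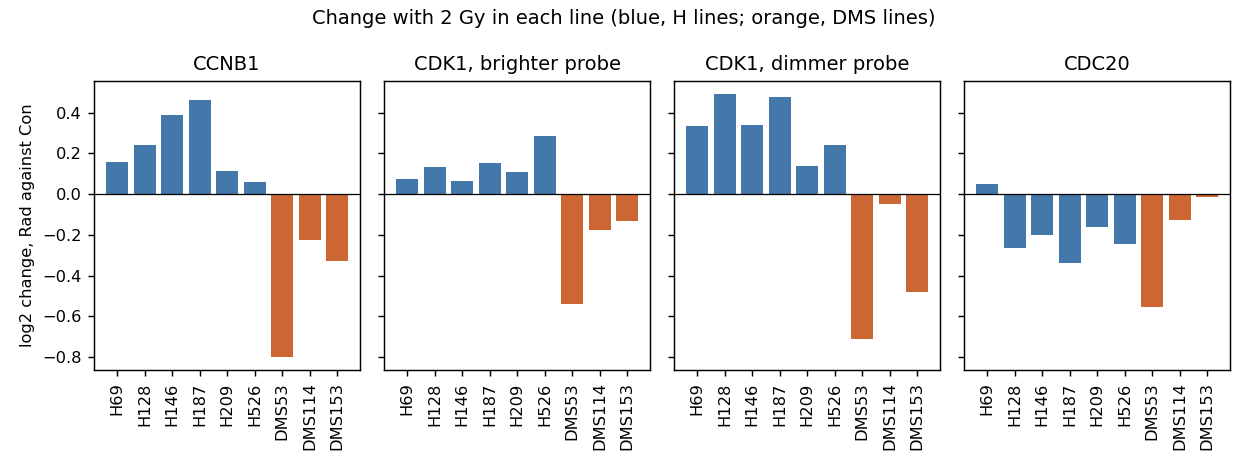
Log2 change with 2 Gy against Con (vertical axis, bars from 0) of CCNB1, both CDK1 probes and CDC20 in each line, with H lines in blue and DMS lines in orange. CCNB1 is above 0 in 6 of 6 H lines and below 0 in 3 of 3 DMS lines, and CDC20 is below 0 in 8 of 9 lines.

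The study contrasts lines it calls sensitive to PARP inhibition with the rest, grouped by clusters of their untreated expression. It names UBE2C, from these arrays, for the sensitive lines only. Its IC50 table marks H146, H187, H209, H526 and DMS153 for potentiation of a chemotherapy agent by veliparib. The cluster in its text has DMS114 in place of DMS153. The lines marked in the IC50 table are the sensitive lines here. With C+50, 6 of 10 members fell in these 5 lines (6.5% of all genes) and 9 of 10 in the other 4 (6.99%). The difference between the groups passed for 0 of 10 by limma (0% of all genes), with 1 of 10, CDC25B, at an unadjusted p under 0.05 (8.13%). CDC25B changed by -0.14 in the sensitive and -0.37 in the other lines, a difference of 0.24 with a 95% interval from 0.07 to 0.41 (adjusted p = 0.544). On its brighter probe the UBE2C change was -0.51 ± 0.07 for the sensitive lines (adjusted p = 1.63e-06). For the others it was -0.48 ± 0.08 (2.89e-05), and the difference of -0.02 had an interval from -0.24 to 0.20.

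On the dimmer UBE2C probe the groups lay further apart. It changed by -0.71 ± 0.08 in the sensitive lines, at -0.52 in H526, -0.64 in H209, -0.65 in H146, -0.68 in H187 and -1.07 in DMS153. In the other lines it changed by -0.46 ± 0.08, at -0.28 in DMS114, -0.31 in H69, -0.42 in H128 and -0.82 in DMS53. All 5 sensitive lines lay below 3 of the 4 others, while DMS53 lay among them. The difference of -0.25 had a 95% interval from -0.48 to -0.02 and an adjusted p of 0.651. By the fold rule of the methods this probe passed in the sensitive lines and not in the others. The gap and this result rest on the set of the IC50 table. With the set of the study's text, DMS114 and DMS153, the smallest and the largest of these falls, would trade groups. No fit of this probe with that set is given here. On the probe used for each gene, that rule took 1 of 10 members in the sensitive lines, CCNB2 (0.0776% of all genes), and 1 of 10 in the others, CDC20 (0.116%). H187 separated the probes most, with -0.17 on the brighter and -0.68 on the dimmer one. The probes are annotated to different UBE2C transcripts, and the dimmer one had a mean log2 signal of 7.65. At baseline 0 of 10 members differed between the groups by limma (0.00647% of all genes). At an unadjusted p under 0.05 there were 0 of 10, against 1292 of 15460 genes. The largest difference was that of PTTG1 (0.65 ± 0.30, adjusted p = 0.71). The difference of C+50 changes for the other members lay between -0.03 and 0.19. Without DMS53, 5 of 10 members fell in the other lines, and CCNB2, CDK1, CDC25C and PTTG1 no longer passed there.

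**Figure D5:**
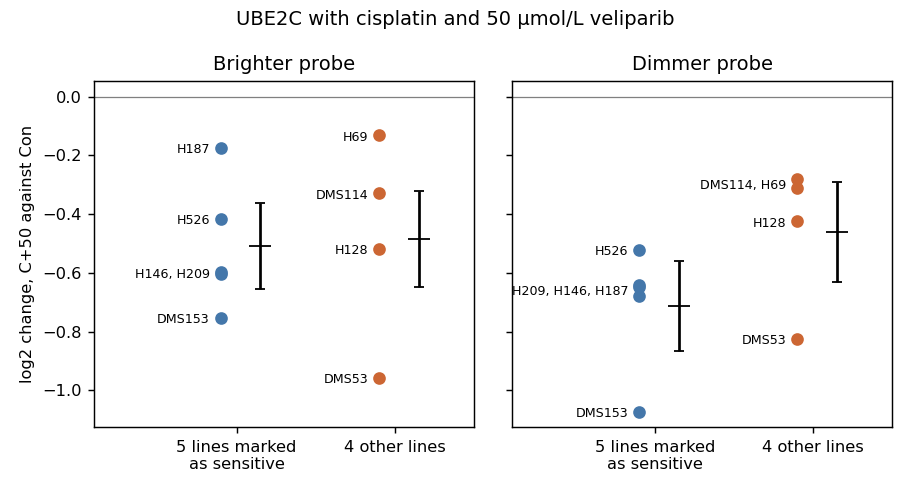
Log2 change with C+50 against Con (vertical axis) on the 2 UBE2C probes in the 5 lines marked as sensitive and the 4 other lines. Points are lines, and black bars are the change fitted by limma with its 95% confidence interval. The fitted changes are -0.51 and -0.48 on the brighter probe and -0.71 and -0.46 on the dimmer one.

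Other genes of the pathway were taken from 5 lists, to be read against the 12.1% of all genes that fell and the 10.5% that rose with C+50. Of 14 measured genes among the subunits and the second coactivator FZR1, 0 fell and 1 rose with C+50, which was CDC23 (0.22 ± 0.04, adjusted p = 2.83e-06, 0 of 9 lines lower), and the list median was 0.02. ANAPC4 was at 0.11 ± 0.05 (adjusted p = 0.102) and ANAPC2 at 0.10 ± 0.04 (0.0597). FZR1, the coactivator of late mitosis and G1, was at 0.03 ± 0.03 (adjusted p = 0.502). Of 8 spindle checkpoint genes and APC/C inhibitors, 5 fell with C+50 and the list median was -0.18. TTK, the checkpoint kinase, changed by -0.44 ± 0.05 (3.64e-09), BUB1 by -0.28 ± 0.05 (7.08e-05) and BUB3 by -0.24 ± 0.03 (8.46e-09). The others, named here after their values were seen, were MAD1L1 (-0.19) and MAD2L1 (-0.16).

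Of 12 APC/C targets and separase, 8 fell and 2 rose with C+50, with a median of -0.27. AURKA, the centrosomal mitotic kinase, changed by -0.67 ± 0.06 (adjusted p = 3.84e-12), more than any member on the probe used for each gene, NEK2 by -0.44 ± 0.07 (3.77e-06) and NUSAP1 by -0.39 ± 0.05 (1.31e-09). The genes that rose, named after their values were seen, were GMNN (0.17), an inhibitor of replication licensing, and TK1 (0.18), a thymidine kinase of S phase. Of 13 regulators of CDK1, 4 fell and 3 rose. PLK1, a kinase that promotes mitotic entry, changed by -0.49 ± 0.05 (7.9e-11), BORA, its cofactor for activation, by -0.35 ± 0.05 (4.44e-07) and CKS2, a CDK1-binding subunit, by -0.33 ± 0.06 (2.64e-05). Also named after their values were seen, CCNF, the cyclin F of an SCF ligase, fell by 0.32, while CDC25A (0.29), PKMYT1 (0.25) and MASTL (0.24) rose. PKMYT1 inhibits CDK1, CDC25A activates it, and MASTL restrains the phosphatase that opposes it. WEE1, which phosphorylates and inhibits CDK1, was at -0.09 ± 0.04 (0.0657) and CDKN1A, the p21 inhibitor induced by p53, at 0.05 ± 0.05 (0.601). Of 13 transcription factors of G2/M genes, 1 fell and 1 rose: NFYC, a subunit of NF-Y, changed by -0.19 ± 0.04 (adjusted p = 0.00027) and RBBP4, a subunit of MuvB, by 0.33 ± 0.04 (4.44e-08). FOXM1 was at -0.04 ± 0.04 (adjusted p = 0.605) and E2F4 at 0.08 ± 0.03 (0.0961). With A50 the counts in the order of these lists were 0, 4, 7, 4 and 1 lower and 2, 0, 0, 3 and 2 higher. Of all 15460 genes, 1286 fell and 1042 rose with A50. With Rad 0 of the 60 measured genes passed limma's test, with 8 at an unadjusted p under 0.05 (11.7% of all genes).

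Across the 63 arrays, with the mean of each line removed, CDC20 and UBE2C tracked each other most closely of the members (r = 0.90), followed by CCNA2 and CDC20 (0.89). UBE2S followed the other members least, with r between 0.23 and 0.49. The arrays share lines and treatments, so these values are descriptive. The 5 genes outside the members that were most like their mean were CENPA (r = 0.96), KIF20A (0.95), DLGAP5 (0.94), CENPE (0.94) and FAM83D (0.93) over the same 63 arrays. CENPA, the centromeric histone H3 variant, changed by -0.89 with C+50 and KIF20A, a mitotic kinesin, by -0.74.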

How the data were processed

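The authors read the arrays in GenomeStudio 2010.3, and the deposited intensity of each probe is on the linear scale before normalization, with a second table quantile normalized by the authors, also linear although the methods speak of log2. Whether background was subtracted is not given in the sources used here. The deposited p-value of each probe is the detection p against negative controls. The members, lists, comparisons and alternatives were chosen with earlier results of these data known. The conditions and lines came from the sample labels.

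Intensities were quantile normalized and log2 transformed with limma 3.58.1 under R 4.3.3, with files read by the package data.table (version 1.17.8). Member probes lay within 0.0004 of the authors' normalized values. Of 47217 probes, 30716 reached a detection p under 0.05 on 4 or more arrays and were kept (21620 with 1 symbol), and a gene took its kept probe with the highest mean. Each treatment was compared with Con by lmFit and eBayes, each line having its own term (a fixed block), and p-values were adjusted by Benjamini-Hochberg over all kept probes. The line is the same in every condition, and same-line arrays correlated (r from 0.9285 to 0.9821, 189 pairs), so the block pairs them. Further fits gave 1 effect per treatment and group of lines, from all 63 arrays, and compared groups at baseline on the 9 Con arrays. Each line and condition has 1 array, so p-values rest on differences between lines. Each probe has 1 estimate of that spread, pooled over all arrays of a fit. In the main fit the standard error was therefore the same for each treatment, 0.07 for CCNB2 with A5 and with C+50. It does not measure how far the lines spread under the treatment tested. Over all genes, the standard error of a log2 change had a median of 0.0354. On simulated data the fit was tested with known changes for A50.

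The genes named are the members, from each list up to 3 genes with the largest change with C+50, FZR1, WEE1, CDKN1A and FOXM1 always, and the 5 genes most like the mean of the members. Alternatives were neqc (offset 16), the authors' values, median scaling, no filter, a filter of detection p under 0.01 on 32 arrays, only the compared arrays, no block, each line left out, the mean of all probes, the methods' rule, and a second set of sensitive lines. Promoters were searched and figures drawn with Python 3.11.15 (matplotlib 3.10.9, numpy 2.4.6, pandas 2.3.3). The number of arrays limits the precision.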

Additional observations from a re-analysis of the deposited data

Results flagged for a closer look

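Of 70 sets of 9 values, 12 had a value lying apart from the other 8 lines at a level that chance gives in about 1 of 20 sets. DMS53 gave 8 of them, each a larger fall than in any other line: CCNA2 with C+5 (-0.86), C+50 (-1.08) and Rad (-0.57), CDC25C with Rad (-0.43), CDC20 with A5 (-0.40) and C+5 (-1.05), and PTTG1 with A50 (-0.81) and C+50 (-0.90). The CDC25B change lay apart in H187 with C+5 (0.29, against -0.33 to -0.09 elsewhere) and in DMS114 with C+50 (-0.66). The Con signal of CDC20 in H146 was 10.44 and that of UBE2C in DMS114 was 10.44, each below the other lines. Sets of 1 gene under several treatments share the Con array, so they are not independent.

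The change with radiation differed between the H and the DMS lines for CCNB1 (0.69) and CDK1 (0.42), by the test of the difference itself. The split into these lines was made with earlier results of these data known, so the test is no independent evidence. Without DMS53 the difference of CDK1 no longer passed.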

How the results depend on the processing

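No call of a member turned direction under any of the alternatives run. The authors' normalized values changed no call. Without the replicate block, which leaves the line out of the fit, the counts of members lower were 0 for A50, C+0, C+5, C+50, Rad, A50 against A5, C+50 against C+0, C+50 in the sensitive and in the other lines and Rad in the H or DMS lines, and those higher were 0 for Rad in the H lines and for the H minus DMS difference. By the methods' rule the counts were 0 for A50, C+0, C+5, C+50 and Rad. With median scaling the counts lower were 3 for C+0, 1 for C+5, 0 for Rad, 0 for C+50 against C+0, 7 in the DMS and 0 in the H lines for Rad, and those higher were 2 in the H lines and 7 for the H minus DMS difference. That scaling also moved the balance of all probes called with A50 to 3517 lower and 222 higher, from 1909 and 1674, with C+50 to 2119 and 1068, from 2796 and 2493, and with Rad in the DMS lines to 2364 and 31, from 27 and 26, and the cause was not tested. With neqc the counts were 0 for Rad, for Rad in the H lines in both directions and for Rad in the DMS lines. Without the filter they were 0 for Rad and 0 lower for Rad in the H lines, with more probes tested. With the mean of all probes they were 0 for Rad in the DMS lines and 0 lower with 2 higher in the H lines. Fitted to the compared arrays alone, 1 member (CDC20) fell with A5 and 0 with Rad. With each line left out in turn, counts lower ran from 3 to 7 for C+0 (3 without DMS153), from 0 to 1 for Rad and for Rad in the H lines, from 0 to 2 for Rad in the DMS lines and from 5 to 9 for C+50 in the other lines (5 without DMS53). Those higher ran from 0 to 1 for Rad in the H lines and from 1 to 2 for the H minus DMS difference. The stricter filter left UBE2S without a value. The dim UBE2S probe and 1 array per line and condition limit what can be read from single lines.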
